A study of Mus musculus with 9 samples.

Results

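Myosin light chains, the kinases of that family and the proteins that bind the myosin filament were followed through 10 genes, chosen by name. They were the light chains Myl1, Mylpf, Myl2, Myl3 and Myl4, the kinases Mylk2 and Mylk4, and the binding proteins Mybph, Mybpc1 and Mybpc2. All 10 were among the 13179 genes of the deposited table, and all 10 passed the filter on low values that left 13137 genes for testing. The table held polyadenylated RNA from mouse gastrocnemius, a calf muscle of mostly fast fibres, in 3 libraries of each of 3 genotypes. These were the p38alphaMCK-KO mice (p38α KO), the p38alpha/gammaMCK-KO mice (p38α/γ KO) and mice labelled only as control, all on a high-fat diet for 6 weeks. The kinases removed, p38α and p38γ, answer to stress and contraction. MCK is not spelled out in the labels; in mouse genetics it usually means the muscle creatine kinase promoter driving Cre, which acts in skeletal fibres and heart and not in the other cells of a muscle. Age, sex, strain and the alleles of the controls are not given in the sources used here, nor whether the 3 libraries of a group came from separate animals, so a p-value speaks of the spread between libraries, which may be technical.

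Striated muscle contracts when myosin heads pull on actin. Each head carries an essential and a regulatory light chain, small proteins wrapped around the lever arm of the heavy chain, and most come in separate fast and slow fibre versions. Light chain kinases phosphorylate the regulatory chain and so raise the force of a fast twitch, while myosin-binding proteins of the C and H families sit on the thick filament and hold or restrain the heads.

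The targeted RNAs were low in the knockouts whose labels name them. Mapk14, which encodes p38α, averaged 43.2 ± 2.63 in the p38α KO, 44.8 ± 9.03 in the p38α/γ KO and 149.5 ± 7.01 in the controls (normalised counts, SD, n = 3). Mapk12, which encodes p38γ, averaged 101.5 ± 4.46 in the p38α KO, 33.2 ± 2.18 in the p38α/γ KO and 143.3 ± 7.74 in the controls. In the p38α KO, whose label does not name p38γ, Mapk12 was thus also lower than in the controls (log2 −0.49, limma adjusted p = 0.00601). The inferred depth lay between 23.8 and 27.9 M reads per library. Of the p38α KO libraries, number 1 stood apart: across all genes it correlated with p38α KO 3 at 0.961, whereas the other pairs within groups reached 0.976 to 0.993. It correlated with the 3 p38α/γ KO libraries at 0.978, 0.983 and 0.980, more closely than with either other library of its own group. For most of the 10 genes the p38α KO value is also given without p38α KO 1. Of 6 myofibre markers, 2 were called lower in the p38α KO, Acta1 and Neb, and Neb alone in the p38α/γ KO. Over all tested genes, 10.4% and 14.4% were called lower in these comparisons. Mb and Des had positive values in the p38α/γ KO that were not called (log2 0.46 and 0.06, limma adjusted p = 0.301 and 0.709). In the p38α KO they stood at 0.04 and −0.06 (limma adjusted p = 0.944 and 0.73). Acta1 and Ckm had the highest counts of the list. The sum over the list was 49278 to 54891 in the p38α KO, 53469.5 to 57046 in the p38α/γ KO and 66636 to 73847 in the controls; its part in the results that follow was not tested. In bulk muscle, fewer fibres of a type and less RNA per fibre cannot be told apart.

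In outline, the fast essential chain Myl1 and the kinases Mylk2 and Mylk4 fell in both knockouts. The fast binding protein gene Mybpc2 was called lower in the p38α/γ KO alone, although its p38α KO libraries also lay below the controls. Mylk4 fell further in the p38α KO than in the double knockout. Mybph moved in opposite directions, up in the p38α KO and down in the p38α/γ KO. The other 5 genes, Mylpf, Myl2, Myl3, Myl4 and Mybpc1, passed the test in no comparison. In the p38α KO against control, 1 of the 10 genes was called higher and 3 lower, where 7.32% and 10.4% of all tested genes were (17.8% either way). In the p38α/γ KO against control, 0 were called higher (also 0 at an unadjusted p below 0.05) and 5 lower, where 11.2% and 14.4% of all genes were (25.6% either way). Between the knockouts, 1 gene was called higher and 1 lower in the p38α KO, where 0.122% and 0.32% of all genes were (0.442% either way). The median log2 fold change of the 10 genes was −0.43 in the p38α KO against control, −0.47 in the p38α/γ KO against control and −0.12 between the knockouts, and that of all tested genes was 0.01, 0.02 and −0.01. Every value of a group lay outside the range of the other for 6 of the 10 genes in the p38α KO against control, for 5 in the p38α/γ KO against control and for 2 between the knockouts, where 38.6%, 55% and 14.3% of all tested genes did so. A gene is called here at a limma adjusted p below 0.05 over all tested genes, and fold changes are of the normalised count + 1. Both comparisons with control use the same 3 control libraries.

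**Figure D1:**
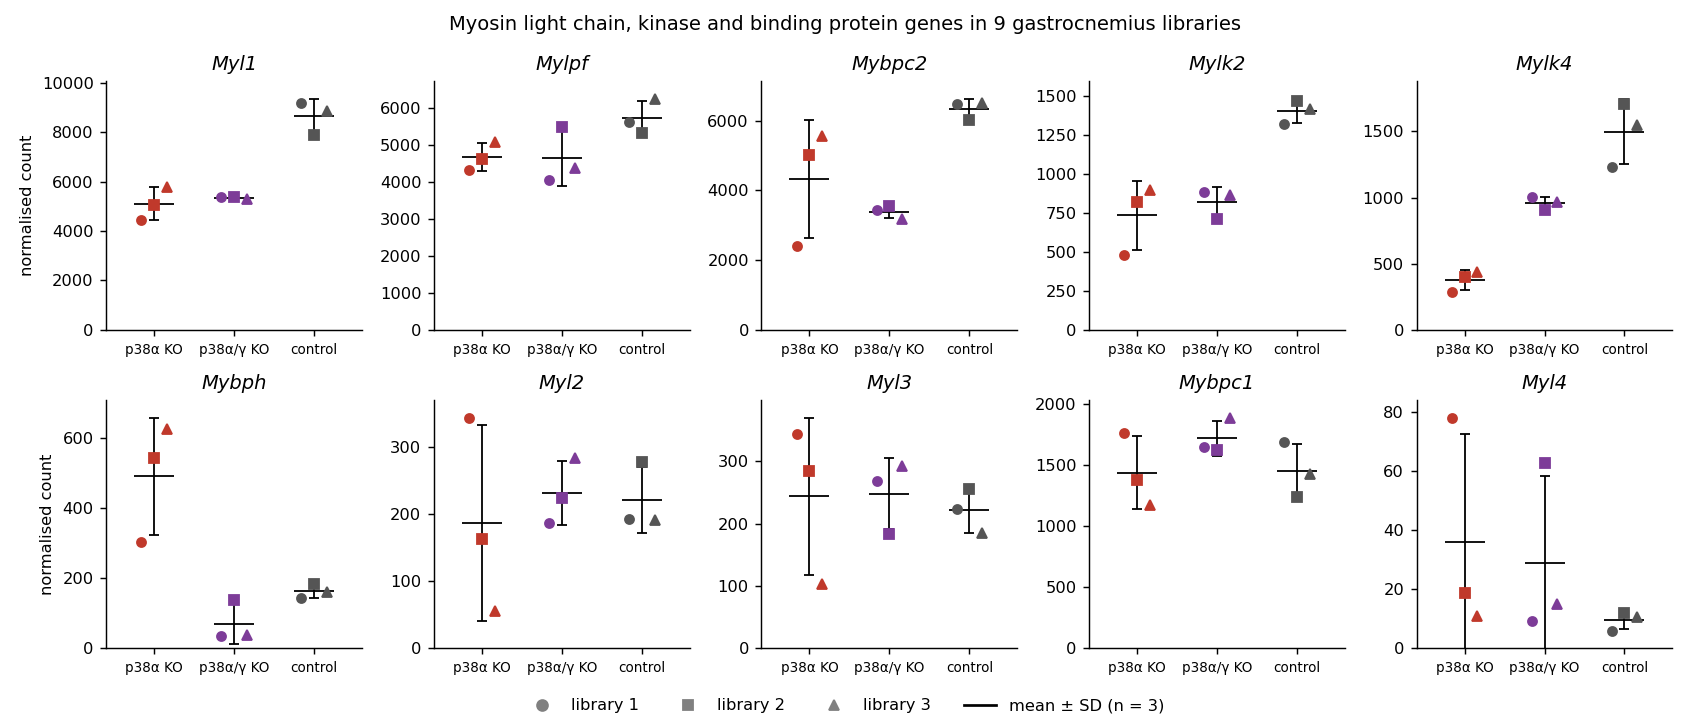
Normalised counts of the 10 genes in each of the 9 libraries, grouped by genotype; marker shapes give the library number, horizontal lines the mean and bars the SD (n = 3), with bars that would go below 0 ended there. The controls of Myl1, Mylk2 and Mybpc2 all lie above both knockouts, Mylk4 steps down across 3 separate levels, and Mybph is high in the p38α KO alone.

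Upstream sequences are shown for the pair that differed between the knockouts, Mylk4 and Mybph, and for Myl1, the most abundant per length of the called genes. Each is the 250 bases before the RefSeq start on GRCm38.p6, read on the gene's own strand; 9 of the 10 genes had an entry. Capitals mark E-boxes, spelled CANNTG, which reads alike on both strands, the letters bound by MyoD-family factors, and matches on either strand to the consensus of the MEF2 factors, which are known p38 substrates. No match overlapped another.
Mylk4 (chr13:32783965-32784214, minus strand): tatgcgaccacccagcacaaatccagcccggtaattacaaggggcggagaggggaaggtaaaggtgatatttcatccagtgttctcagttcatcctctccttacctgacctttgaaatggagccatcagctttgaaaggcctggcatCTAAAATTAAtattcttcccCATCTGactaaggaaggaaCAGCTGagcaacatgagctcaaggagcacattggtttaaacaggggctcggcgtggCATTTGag
Mybph (chr1:134193198-134193447, plus strand): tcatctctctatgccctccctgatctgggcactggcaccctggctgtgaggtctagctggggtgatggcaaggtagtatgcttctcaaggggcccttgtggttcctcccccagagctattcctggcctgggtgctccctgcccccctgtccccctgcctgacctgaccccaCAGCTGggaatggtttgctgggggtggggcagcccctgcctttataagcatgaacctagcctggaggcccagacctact
Myl1 (chr1:66945057-66945306, minus strand): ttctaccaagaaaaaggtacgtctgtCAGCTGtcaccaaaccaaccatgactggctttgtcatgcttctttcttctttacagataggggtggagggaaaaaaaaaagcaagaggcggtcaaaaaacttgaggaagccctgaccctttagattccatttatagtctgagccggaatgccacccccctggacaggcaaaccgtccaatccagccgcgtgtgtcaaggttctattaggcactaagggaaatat
The Mylk4 window held 3 E-boxes, starting 83, 64 and 8 bases before the start of the gene, and the only MEF2 consensus match among the 10 windows of the 9 genes, 103 bases before it. Mybph and Myl1 each held the E-box CAGCTG, as Mylk4 does in its middle match, 79 and 224 bases before the RefSeq start. The same letters stood 51, 130 and 87 bases before a RefSeq start of Mylpf, Myl2 and Mybpc1, genes called in no comparison. The Myl1 window lies inside the annotated gene, which runs from 66924295 to 66945404, so it precedes the RefSeq start and not the outermost annotated start. Of 32851 promoter windows of this length, 66.2% held an E-box and 2.92% a MEF2 match, so an E-box is the common state. A match describes letters only; binding was not measured.

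Myl1 encodes the essential chain of fast fibres (ENSMUSG00000061816; chromosome 1, 66924295 to 66945404, GRCm38). Its normalised counts were 4439, 5072 and 5778 in the p38α KO, 5362, 5367 and 5288 in the double p38α/γ KO, and 9183, 7894 and 8872 in the controls. Every knockout library lay below every control library, and the coefficient of variation among the double knockout libraries was 0.827%. Myl1 fell 1.70-fold in the p38α KO (log2 −0.77, SE 0.134, limma adjusted p = 0.00676) and 1.62-fold in the p38α/γ KO (log2 −0.69, adjusted p = 0.00932). Without p38α KO 1 the value of the single knockout was −0.67 on the log2 scale (adjusted p = 0.00604). The knockouts overlapped, and the interval of their difference ran from −0.37 to 0.22 on the log2 scale. With quantile normalisation the p38α/γ KO value was −0.37 and did not pass (adjusted p = 0.0563). Of the 2067 stretches of 51 bases in Myl1 transcripts, the length of a read here, 239 also occur in the pseudogene Mylf-ps, which was not analysed here, so reads from those stretches could not be placed with certainty.

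Mylpf encodes the fast regulatory chain, the substrate of the light chain kinases (ENSMUSG00000030672; chromosome 7, 127208890 to 127214298). It measured 4336, 4633 and 5083 in the p38α KO, 4069, 5486 and 4379 in the double p38α/γ KO, and 5624, 5339 and 6239.7 in the controls. The p38α KO libraries were all below the controls, by 1.22-fold, but the difference did not pass (log2 −0.29, adjusted p = 0.182). In the p38α/γ KO library 2 reached into the control range (log2 −0.31, adjusted p = 0.13), and with quantile normalisation the sign turned (0.06). The fast partner chains therefore stood on different sides of the threshold; whether they changed by different amounts was not tested.

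For the slow chains no group difference passed the test, and the spread within the p38α KO was wide. Myl2, the slow and ventricular regulatory chain (chromosome 5, 122100951 to 122113472), measured 342, 163 and 54.9 in the p38α KO, 187, 224 and 282 in the double p38α/γ KO, and 192, 277 and 191 in the controls. Myl3, the slow and ventricular essential chain (chromosome 9, 110741861 to 110769798), measured 344, 285 and 103 in the p38α KO, 269, 184 and 292 in the double p38α/γ KO, and 224, 256 and 185 in the controls. For both genes p38α KO 1 was the highest of all 9 libraries and p38α KO 3 the lowest. The log2 fold changes against control were −0.57 and −0.02 in the p38α KO (adjusted p = 0.463 and 0.975) and 0.07 and 0.15 in the p38α/γ KO (adjusted p = 0.927 and 0.792). The sum over 11 other slow fibre genes moved the same way within the p38α KO, at 3553, 2730 and 1220, against 2863, 3230 and 3863 in the p38α/γ KO and 2567, 2790 and 2007 in the controls; its part in the result was not tested. Without p38α KO 1, Myl2 and Myl3 in the p38α KO stood at −1.19 and −0.36 against control (adjusted p = 0.0532 and 0.522). Without p38α KO 3, they stood at 0.12 and 0.51 against control (adjusted p = 0.783 and 0.0924).

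Myl4 encodes the essential chain of embryonic muscle and the atrium (chromosome 11, 104550663 to 104595753), and in adult leg muscle it was scarce. It measured 78.1, 18.9 and 10.9 in the p38α KO, 9.37, 62.7 and 15.2 in the double p38α/γ KO, and 6.06, 12.1 and 10.6 in the controls. A library of each knockout stood far above the rest, p38α KO 1 and p38α/γ KO 2, while the other 4 knockout libraries lay near or within the control range. The mean differences of 1.37 and 1.10 on the log2 scale did not pass (adjusted p = 0.223 and 0.287). They were 0.58 without p38α KO 1 and 0.34 without p38α/γ KO 2 (adjusted p = 0.553 and 0.765). The same 2 libraries had the most RNA of the embryonic heavy chain Myh3, with 106 in p38α KO 1 and 69.1 in p38α/γ KO 2 against 2.61 to 4.05 in the controls, and of the neonatal heavy chain Myh8, with 63.3 and 59.5 against 1.19 to 2.09. Unlike Myl4, Myh3 passed against control in the p38α KO (log2 2.88, adjusted p = 0.0225) and the p38α/γ KO (2.94, adjusted p = 0.0178), as did Myh8 (2.90, adjusted p = 0.04, and 2.74, adjusted p = 0.0387). In a check added after the data were seen, Myh3 without p38α KO 1 was at 2.04 in the p38α KO (adjusted p = 0.0223) and Myh8 at 2.06 (adjusted p = 0.073), and without p38α/γ KO 2 neither passed in the double knockout (2.44 and 1.85, adjusted p = 0.076 and 0.13). Of 14 developmental and denervated fibre genes, the p38α KO had 10 called higher, and 7 without p38α KO 1, and the p38α/γ KO had 6, and 2 without p38α/γ KO 2. By lowest p these were Gadd45a, a stress gene (log2 2.27 in the p38α KO, adjusted p = 0.00198; 1.66 in the p38α/γ KO, 0.00644), Runx1, a factor induced in denervated fibres (1.59 and 1.33, adjusted p = 0.00932 and 0.0154), and Sln, an inhibitor of the calcium pump (2.95 and 3.92, adjusted p = 0.0135 and 0.00518). Of 7 macrophage markers, the p38α KO had 6 called higher, and 4 without p38α KO 1, and the p38α/γ KO all 7, and 1 without p38α/γ KO 2. Their sum was 79.7 to 199 in the p38α KO, 96.2 to 190.2 in the p38α/γ KO and 42.5 to 58.8 in the controls, and the highest values were again those of p38α KO 1 and p38α/γ KO 2; their part in the result was not tested. Among all tested genes, 1476 were called higher in the double knockout against control, 325 without p38α/γ KO 2 and 428 without p38α/γ KO 3. The loss of calls without p38α/γ KO 2 was thus not confined to the developmental and macrophage lists. For the single knockout the number called higher was 962, and 938 without p38α KO 1. Of the 5 cardiac markers, Myh6 was measured and the others were not analysed here. Myh6 was at 14.1 or less in every library.

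Mylk4 lay at 3 separate levels in the 3 genotypes. The gene encodes a kinase of the light chain kinase family (ENSMUSG00000044951; chromosome 13, 32700834 to 32783954). Its normalised counts were 289.9, 397 and 439 in the p38α KO, 1002, 906 and 969 in the double p38α/γ KO, and 1234, 1710.2 and 1552 in the controls. The 3 groups did not overlap, with the single knockout lowest and the double knockout between it and the controls. Mylk4 fell 4.01-fold in the p38α KO (log2 −2.0, SE 0.166, adjusted p = 0.000374) and 1.55-fold in the p38α/γ KO (log2 −0.63, adjusted p = 0.0244). The p38α KO was 2.59-fold below the p38α/γ KO (log2 −1.37, SE 0.166, adjusted p = 0.00611). Without p38α KO 1 these differences were −1.83 from the controls and −1.20 from the p38α/γ KO (adjusted p = 0.000117 and 0.00182). The direct difference was as large without p38α/γ KO 1 or 3, at −1.34 and −1.36, but then missed the threshold (adjusted p = 0.0506 and 0.0679). The fall in the double knockout missed it without p38α/γ KO 2 or 3 or control 2 or 3 (adjusted p from 0.0723 to 0.0915) and with quantile normalisation (log2 −0.45, adjusted p = 0.0828). Around Mylk4, 0 of 38 other tested genes within 5 Mb were called between the knockouts by limma (7 at an unadjusted p below 0.05), and 7 of 470 on the whole of chromosome 13 were, or 1.49%, where 0.442% of all genes were. Around Mybph 0 of 75 were called (10 at an unadjusted p below 0.05), and 1 of 793 on chromosome 1 was.

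Mylk2 encodes the skeletal muscle light chain kinase, the calmodulin-dependent enzyme that phosphorylates the fast regulatory chain (ENSMUSG00000027470; chromosome 2, 152911352 to 152923068). It measured 483, 819.9 and 901 in the p38α KO, 887, 713 and 868 in the double p38α/γ KO, and 1322, 1473 and 1417 in the controls. Both knockouts lay below the controls and overlapped each other. The fall was 1.97-fold in the p38α KO (log2 −0.98, adjusted p = 0.0136) and 1.71-fold in the p38α/γ KO (log2 −0.78, adjusted p = 0.0254), and the knockouts differed by −0.21 (95% interval −0.67 to 0.25). Without p38α KO 1, the lowest library, the p38α KO value was −0.71 and still passed (adjusted p = 0.00332). Leaving out control 2 or 3 ended that call (adjusted p = 0.0506 and 0.0526). The call in the p38α/γ KO was lost with quantile normalisation (log2 −0.59, adjusted p = 0.0572) and without p38α/γ KO 2 or 3 or any of the controls (0.0661 to 0.101).

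The kinases could be compared within each library, where the scaling of the library cancels. The log2 ratio of Mylk4 to Mylk2 was −0.74, −1.05 and −1.04 in the p38α KO, 0.18, 0.35 and 0.16 in the double p38α/γ KO, and −0.10, 0.22 and 0.13 in the controls. Mylk4 was thus low relative to Mylk2 in the p38α KO, by 1.02 against the controls and by 1.17 against the double knockout on the log2 scale, without overlap. The exact permutation test gave p = 0.1 for each, two-sided, the smallest that 3 against 3 libraries allow. In the p38α/γ KO the ratio overlapped the controls (difference 0.14, exact permutation p = 0.4).

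Mybph encodes myosin-binding protein H, a shorter relative of the C proteins on the thick filament (ENSMUSG00000042451; chromosome 1, 134193448 to 134201232). It measured 304, 543 and 625 in the p38α KO, 34.9, 137 and 39.2 in the double p38α/γ KO, and 143, 184 and 162 in the controls. Every p38α KO library was above every control and every p38α/γ KO library was below, although p38α/γ KO 2 lay close to the lowest control. Mybph rose 2.88-fold in the p38α KO (log2 1.52, SE 0.456, adjusted p = 0.0459) and fell 2.80-fold in the p38α/γ KO (log2 −1.48, adjusted p = 0.0401). The p38α KO stood 8.05-fold above the p38α/γ KO (log2 3.01, 95% interval 1.99 to 4.03, adjusted p = 0.0222). All 21 alternative fits kept these directions, but the calls were close to the threshold. The rise was lost without p38α KO 2 or 3, p38α/γ KO 3 or any of the controls (adjusted p up to 0.13), and without a trend in the estimate of the spread (adjusted p = 0.0544). The fall was lost without p38α KO 2, p38α/γ KO 1 or 3 or any of the controls (up to 0.136), and with quantile normalisation (0.0545). The direct difference was lost without p38α KO 2 or 3, p38α/γ KO 1 or 3, or control 2 or 3 (up to 0.153). With only the 6 knockout libraries the direct difference had an adjusted p of 0.116. Without p38α KO 1, which had the least Mybph of its group, the rise was 1.84 on the log2 scale (adjusted p = 0.0236). On the opposite strand Mybph overlaps Adora1, which was at 1.97 or less in every library.

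Mybpc2 encodes the fast C protein (ENSMUSG00000038670; chromosome 7, 44501699 to 44524656). It measured 2399.9, 5026 and 5568 in the p38α KO, 3436, 3541 and 3187 in the double p38α/γ KO, and 6481, 6009.6 and 6496 in the controls. The p38α/γ KO libraries sat tightly together well below the controls, whereas p38α KO 1 was far below the other p38α KO libraries. Mybpc2 fell 1.87-fold in the p38α/γ KO (log2 −0.90, SE 0.266, adjusted p = 0.0354), but not past the threshold with the library number as a block (adjusted p = 0.0512), with quantile normalisation (0.0505) or without any 1 of its 6 libraries (0.0685 to 0.106). Every p38α KO library also lay below every control. In the p38α KO the value was −0.64 (adjusted p = 0.122), with −0.26 without p38α KO 1 and −0.86 without p38α KO 3, where it passed (adjusted p = 0.0366). Without p38α KO 1 the single knockout was 0.64 above the p38α/γ KO (adjusted p = 0.0103), whereas with it the difference was 0.26 (adjusted p = 0.725).

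Mybpc1, which encodes the slow C protein and is also made in fast fibres (chromosome 10, 88518279 to 88605152), measured 1758, 1374 and 1174 in the p38α KO, 1644, 1621 and 1883 in the double p38α/γ KO, and 1683, 1239.8 and 1424 in the controls. The groups overlapped in every comparison. Its log2 fold changes against control were −0.02 (95% interval −0.39 to 0.34) in the p38α KO and 0.25 (−0.11 to 0.62) in the p38α/γ KO.

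**Figure D2:**
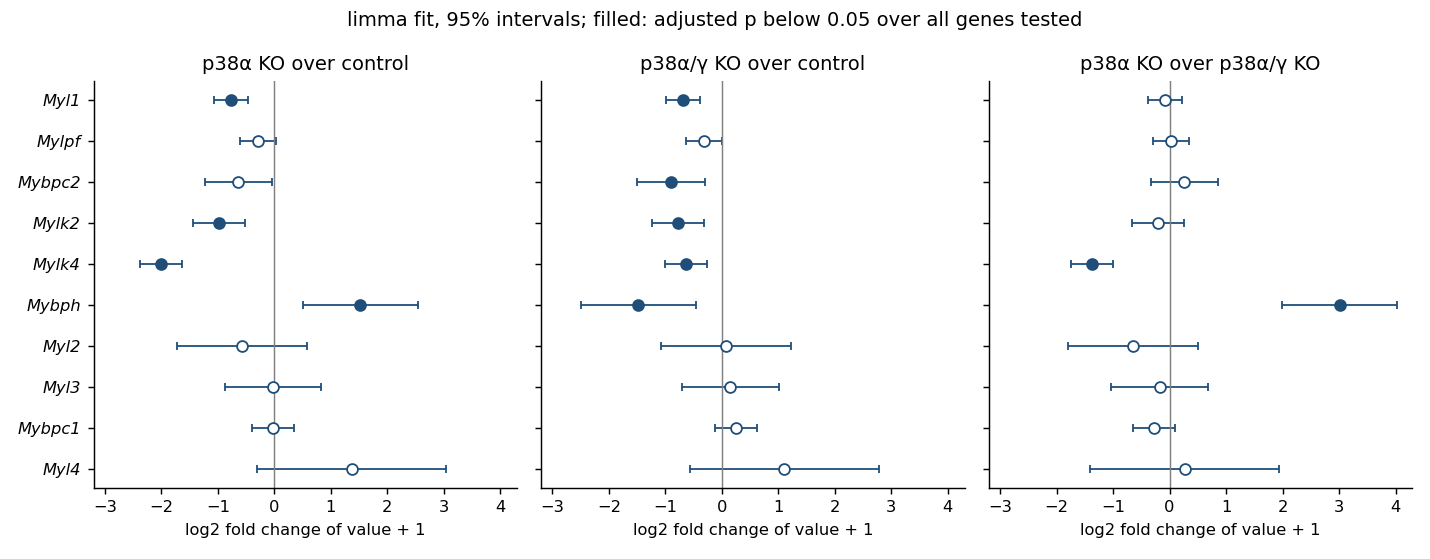
Fitted log2 fold changes of the normalised count + 1 for the 10 genes in the 3 comparisons, with 95% intervals; filled points had an adjusted p below 0.05 over all tested genes. Mybph lies at 1.52 in the p38α KO and at −1.48 in the p38α/γ KO, and Mylk4 at −2.0 and −0.63.

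Within libraries, the ratios of 2 of the 3 fast to slow pairs were lower in every double knockout library than in any control. The log2 ratio of Mybpc2 to Mybpc1 averaged 0.98 ± 0.20 in the p38α/γ KO and 2.14 ± 0.17 in the controls (SD, n = 3 each), a difference of −1.15 without overlap (exact permutation p = 0.1, two-sided). In the p38α KO it spread from 0.45 to 2.25, across the values of both other groups (difference from control −0.62, exact permutation p = 0.3). For the essential chains, the ratio of Myl1 to Myl3 averaged 4.45 ± 0.36 in the p38α/γ KO and 5.30 ± 0.32 in the controls, a difference of −0.84 without overlap, and ran from 3.69 to 5.81 in the p38α KO. The gap between the double knockout and the controls was narrow, with 4.87 in p38α/γ KO 2 and 4.95 in control 2. The ratio of the regulatory chains, Mylpf to Myl2, overlapped between all groups. The median log2 fold change of 13 other fast fibre genes was −0.40 for the p38α KO and −0.24 for the p38α/γ KO against control. Of these, 2 were called lower in the p38α KO (Tpm1, log2 −0.65, and Tnnc2, −0.41, adjusted p = 0.0227 and 0.0452) and 1 in the p38α/γ KO (Actn3, −0.86, adjusted p = 0.042). Over all genes the shares called lower were 10.4% for the single and 14.4% for the double knockout. The heavy chains Myh2 and Myh1 of that list had positive values in the p38α/γ KO that did not pass (0.80 and 0.65, adjusted p = 0.164 and 0.151). Myh4, the heavy chain of that list with the highest counts, had negative values that did not pass either. They were −0.93 in the p38α/γ KO and −0.70 in the p38α KO (adjusted p = 0.0728 and 0.183). Tpm1 encodes a tropomyosin, Tnnc2 the calcium-binding troponin of fast fibres and Actn3 a Z-disc protein of fast fibres. The median of 11 other slow fibre genes was −0.17 for the p38α KO and 0.48 for the p38α/γ KO, and the slow heavy chain Myh7 stood at −0.61 and −0.10 (adjusted p = 0.487 and 0.912). Of these 11, Casq2, a calcium store protein, was called higher in each knockout (log2 1.52 in the single and 2.13 in the double knockout, adjusted p = 0.0346 and 0.00947) and none was called lower, nor was any lower at an unadjusted p below 0.05.

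**Figure D3:**
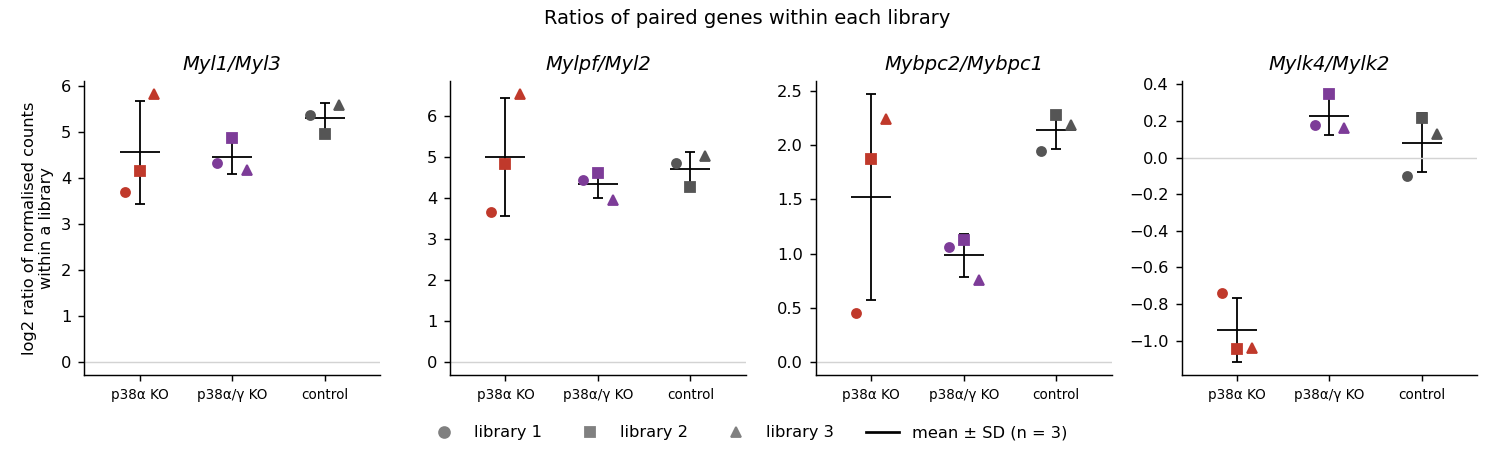
Log2 ratios of 2 genes within each library for the fast over slow pairs Myl1/Myl3, Mylpf/Myl2 and Mybpc2/Mybpc1 and for the kinases Mylk4/Mylk2, with mean and SD (n = 3). The Mylk4/Mylk2 ratio is below 0 in all 3 p38α KO libraries, and the Mybpc2/Mybpc1 ratio is lower in every p38α/γ KO library than in any control.

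The spread inside the p38α KO ran along a common order for the whole set. In all 10 genes p38α KO 2 lay between the other libraries of its group. In 6 of them, Myl1, Mylpf, Mylk2, Mylk4, Mybph and Mybpc2, p38α KO 1 was lowest, and in the 4 others it was highest. Over all tested genes p38α KO 2 was the middle library in 58.7%. In the other groups the most frequent middle libraries were p38α/γ KO 3, for 5 genes, and control 3, for 6. The sum over the 13 fast fibre genes had the same order, at 110976, 155854 and 172410 in p38α KO 1, 2 and 3. Myh4 and Atp2a1, with the highest counts of that list, rose in that order (Myh4 at 16780.9, 40520.5 and 49300). Myh2 (4582, 2952 and 1136), Myh1 (6935, 3536 and 3102) and Casq1 (2211, 2149 and 2011) ran the opposite way. Tnnc2 followed neither order.

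Per kilobase of annotated exon, the light chains of fast fibres led in every group. Mylpf averaged 4411 ± 354 in the p38α KO, 4373 ± 702 in the p38α/γ KO and 5399 ± 434 in the controls, and Myl1 averaged 2457 ± 323 in the p38α KO, 2574 ± 21.3 in the p38α/γ KO and 4171 ± 324 in the controls (normalised counts per kb, SD, n = 3). Mybpc2 came next in every group, at 1199 ± 469 in the p38α KO, 938 ± 50.3 in the p38α/γ KO and 1753 ± 76.6 in the controls. Mylk2 and Mybpc1 followed, and Myl2 and Myl3 overlapped in each group. In the controls Mylk2 was at 476, Mybpc1 at 320, Mylk4 at 195, Myl2 at 113, Myl3 at 108, Mybph at 70.1 and Myl4 at 2.07, and Myl2 and Myl3 were the only neighbours in that order whose libraries overlapped. Mylk4 stood at 48.8 ± 9.99 in the p38α KO, 125 ± 6.35 in the p38α/γ KO and 195 ± 31.6 in the controls. Mybph stood at 211 ± 71.6 in the p38α KO, 30.2 ± 24.8 in the p38α/γ KO and 70.1 ± 8.91 in the controls, and so ranked 6 in the p38α KO and 9 in both other groups, while Mylk4 ranked 9 in the p38α KO and 6 in both others. In the p38α KO both genes overlapped their neighbours among Mylk2, Myl3 and Myl2 in this order, and in the p38α/γ KO Mylk4 overlapped Myl3. With the length of the longest transcript in place of all exons, Myl1 and Mylpf changed places in the controls, with overlapping libraries, Mybph ranked 7 in the p38α KO and Mylk4 ranked 8 in the p38α/γ KO.

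**Figure D4:**
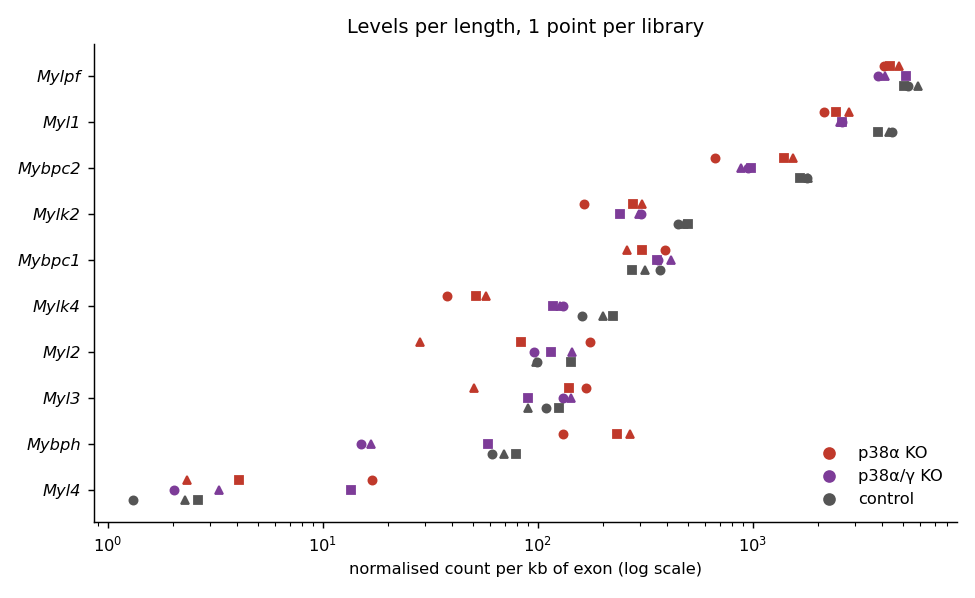
Normalised counts per kb of exon on a log scale, 1 point per library, with the p38α KO above the p38α/γ KO and the controls in each row. The genes span from 2.07 per kb for Myl4 to 5399 per kb for Mylpf in the controls, and Mylk4 and Mybph are the rows in which the knockouts separate from each other.

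Of 27 further genes for light chains of other tissues, their kinases and phosphatase, calmodulin and thick filament partners, 23 were tested. Against control, 0 were called higher by limma (2 at an unadjusted p below 0.05) and 4 lower in the p38α KO, and 1 higher and 5 lower in the p38α/γ KO. Over all genes the shares called either way were 17.8% for the single and 25.6% for the double knockout, so these counts are near the background. Between the knockouts 0 were called, with 2 lower at an unadjusted p below 0.05. The median log2 fold change of the list was −0.21 for the p38α KO and 0.06 for the p38α/γ KO against control. Calm3, a calmodulin gene, fell by 0.64 in the p38α KO and by 0.59 in the double knockout on the log2 scale (adjusted p = 0.0257 and 0.0278). Ppp1cb, the catalytic subunit of the myosin phosphatase, fell by 0.63 and 0.70 in the same 2 genotypes (adjusted p = 0.042 and 0.0246), and Rock2, a kinase that inhibits that phosphatase, fell by 0.36 and 0.34 (adjusted p = 0.0386 and 0.04). In the p38α/γ KO Mypn, a Z-disc and I-band protein, fell by 0.58 (adjusted p = 0.0469) and the non-muscle regulatory chain Myl12a rose 1.85-fold, with 410.3, 488 and 495 against 232, 254 and 262 in the controls (adjusted p = 0.00947).

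The genes whose levels ran most like a called gene over the 9 libraries were found among 7419 genes with a mean of at least 10, by Pearson's r of the log2 values. These points share libraries and 3 group means, so the values are descriptions. Mylk4 was most like Zfp651 (0.987), Homer1 (0.976) and Ccser2 (0.976). Homer1, a scaffold of calcium channels also on chromosome 13, averaged 46.6 in the p38α KO, 67.0 in the p38α/γ KO and 82.2 in the controls. Mylk2 was most like Ube2b, Sypl and Camk2a (0.989 each), and Camk2a, a calmodulin-dependent kinase, averaged 284 in the p38α KO, 299.7 in the p38α/γ KO and 429 in the controls. Myl1 was most like Rabgef1 (0.991), Hmga1 (0.987) and Ric1 (0.985), and Mybpc2 most like Mospd1 (0.992), March7 (0.992) and Tbc1d23 (0.99). Mybph had less close matches, Actl6a (0.924), Cacnb1 (0.909) and Ttc38 (0.904). Cacnb1, a subunit of the voltage sensor of the fibre, averaged 131 in the p38α KO, 98.8 in the p38α/γ KO and 119.5 in the controls.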

How the data were processed

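Polyadenylated RNA was sequenced as 51-base single reads, per the labels' protocols. The submitters' processing notes name CASAVA 1.8, cutadapt, RSEM 1.3.1, limma and GRCm38, without order or annotation. The authors deposited a table of signal values, which they named normalised counts, with a column for each library; its scaling is not given in the sources used here. All values are a whole number plus 0.5 over a scaled library total, within 0.001 reads, which gave the depths. Because no source calls these whole numbers reads, they were not tested as counts.

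A gene entered the test if 3 or more libraries had a value of 1 or more. On log2(value + 1), limma (version 3.58.1, R 4.3.3) was fitted over all 9 libraries, with trended empirical Bayes and Benjamini-Hochberg adjustment over 13137 genes. Adjusted p-values and intervals are limma's unless an exact permutation test is named. The script was tested on simulated data. Gene coordinates and lengths come from GENCODE M21, which held 13166 of the 13179 deposited identifiers, and promoters from RefSeq. Whether the counting used strand is not stated, so antisense reads cannot be told apart.

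Every one of the 10 genes is named, with the called genes of the further pathway list, of which 1 is not reported here, up to 3 called genes by lowest p of each fibre list, and the 3 genes most like each called gene; Myh3, Myh8 and the genes described beside the closest matches were named for their bearing on a result. The genes and lists were chosen with earlier results of these data known. Samples carry numbers 1 to 3. Across genes, the departures of equally numbered libraries from their group mean correlated at 0.111, 0.124 and 0.148 for the p38α/γ KO and controls. Unlike numbers correlated at up to 0.018 there, but at up to 0.175 for the p38α KO and controls and 0.35 between the knockouts. For equal numbers, a correlation was below 0 in both other comparisons. The labels do not pair the libraries, and such values cannot show whether they were paired. The main fit and the permutation tests did not pair them, and the number entered only the alternative fit with a block.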

Additional observations from a re-analysis of the deposited data

How the results depend on the processing

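Each value was refitted under 12 other settings and without each of the 9 libraries. No called value changed direction, and of 11 called values those of Myl1 and Mylk4 in the p38α KO against control passed in all 21 fits. For the p38α KO against control the count of 4 called genes became 8 with array weights, 3 with no trend in the estimate of the spread (Mybph lost, adjusted p = 0.0544) and 2 to 4 without 1 library. For the p38α/γ KO against control the count of 5 became 0 with quantile normalisation (the calls were lost at adjusted p from 0.0505 to 0.0828), 7 with array weights, which added Mybpc1 and Mylpf, and 1 to 5 without 1 library. Between the knockouts the count of 2 became 5 with array weights, 1 with only the 6 libraries compared and 0 to 3 without 1 library. The calls over all genes moved widely as well. Without 1 library, the 2332 calls of the p38α KO against control became 801 to 3241. The 3368 of the p38α/γ KO against control became 844 to 5346, and the 58 between the knockouts became 13 to 1862. The array weights stopped before they converged, and with them 7475 of all genes were called in the first comparison. The library number as a block ended the call of Mybpc2 in the p38α/γ KO (adjusted p = 0.0512) and changed no other call among these genes. The cause of these changes was not tested.

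Signs turned only for values that had not passed the test in the comparison concerned. With quantile normalisation the log2 value was 0.10 for Myl3 and 0.17 for Mybpc1 in the p38α KO, 0.064 for Mylpf in the p38α/γ KO and −0.11 for Mylpf between the knockouts. With array weights it was 0.42 for Myl3 in the p38α KO, and between the knockouts 0.16 for Myl3 and −0.10 for Myl4. Without 1 library, values against control ran from −1.19 to 0.12 for Myl2, −0.36 to 0.51 for Myl3 and −0.18 to 0.11 for Mybpc1 in the p38α KO, and from −0.083 to 0.25 for Myl2 in the p38α/γ KO. Between the knockouts they ran from −0.17 to 0.020 for Myl1, −0.068 to 0.15 for Mylpf, −1.26 to 0.052 for Myl2, −0.51 to 0.36 for Myl3, −0.52 to 1.03 for Myl4 and −0.38 to 0.071 for Mylk2.

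With the longest transcript as length, 18 of 30 group levels moved by more than their SD. The planned count test with edgeR was not run, since no source states that the values are reads. With 3 libraries a group, no exact permutation test can go below 0.1, and the spread of p38α KO 1 to 3 limits what that group can show.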
